A study of Homo sapiens with 15 samples.

Results

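The S404A and wild-type forms of adipose triglyceride lipase (ATGL), the product of PNPLA2, were compared after each had been put back into the same kind of ATGL knockout cell. The S404A form has alanine in place of a serine that can be phosphorylated, and the other is the wild-type enzyme. The comparison takes every library of these lines, 6 of the 15 in the series. KO_S404A is the knockout with S404A ATGL (3 libraries) and KO_WT is the knockout with wild-type ATGL (3 libraries). The other 9 libraries are of the knockout with the S47A protein, which lacks the catalytic serine (KO_S47A), of the knockout with nothing added (KO), and of a scramble control (Scramble), with 3 each. All lines are C4-2, a descendant of the prostate cancer line LNCaP that is castration-resistant, kept in glucose-free RPMI1640 to which 5 mM glucose and 5% dialyzed serum had been added. KO_S404A and KO_WT therefore share the knockout of PNPLA2, and they differ by design in the added protein. Each genotype is 1 line. Cloning or pooling of the cells and the promoter of the added gene were not given in the sources used here. The labels do not say whether the 3 libraries of a line come from separate cultures, and p-values therefore measure the spread between these samples only, which may be technical.

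ATGL removes the first fatty acid from triglyceride stored in lipid droplets. Hormone-sensitive lipase (LIPE) and monoacylglycerol lipase (MGLL) act on the products in turn. The enzyme is activated by its partner ABHD5 and held back by G0S2 and HILPDA, while perilipins on the droplet surface control access to it. In mouse, the serine that corresponds to the one replaced in S404A has been described as a target of protein kinase A and of AMPK, kinases that answer to fasting signals and to low cellular energy. The fatty acids set free feed mitochondrial oxidation and serve as ligands or precursors of ligands for PPAR transcription factors.

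The codons that the substituted proteins alter are shown because they define the lines. PNPLA2 lies on the plus strand of chromosome 11. Its transcript in GENCODE release 29 (GRCh38) has 10 exons, and the coding sequence in it encodes 504 residues. The codon of the serine replaced in S404A is at chr11:824557-824559 in exon 10 (bases 1210 to 1212 of the coding sequence), and that of the catalytic serine replaced in S47A is at chr11:819857-819859 in exon 2 (bases 139 to 141). The reference stretches printed here are 30 bases long, at chr11:824545-824574 and chr11:819845-819874, and capitals mark the serine codon. Both serines have the codon TCG in the reference, and the codons of the added genes were not given in the sources used here.
serine replaced in S404A: cgccgcgtccagTCGctgccgtccgtgccg
serine replaced in S47A: atctacggcgccTCGgccggggcgctcacg

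Poly(A) RNA was sequenced, and the deposited values are read counts per gene. Counts in genes totalled 61352325, 64345775 and 50971324 in the KO_S404A libraries and 47895553, 41521069 and 46147301 in the KO_WT libraries. Levels are given here as CPM, counts scaled to a common library total, after scaling for library composition, and differences as log2 of KO_S404A over KO_WT, so a positive value means higher in KO_S404A. KO_S404A 2 stood apart in composition. Its share of reads in no annotated feature was 8.21%, against 14.1% and 13.2% in KO_S404A 1 and 3 and 11.3%, 11.3% and 14.4% in the KO_WT libraries, and its count-weighted mean gene length was 3886 bases, against 3658 and 3727 in the other KO_S404A libraries and 3543 to 3672 in KO_WT. Luminal prostate markers were present in both lines. The summed level of 21 luminal genes ran from 4789 to 5025 CPM in KO_S404A and from 4809 to 5202 CPM in KO_WT. That of 12 basal genes, with KRT17, KRT5 and TP63 at 0 in all 6 libraries, ran from 98.6 to 104.5 CPM in KO_S404A and from 92.0 to 106.6 CPM in KO_WT.

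PNPLA2 transcript was higher in KO_S404A than in KO_WT in each library, although the difference did not pass the test across all genes. It stood at 303, 443 and 493 CPM in the KO_S404A libraries, against 213, 207 and 241 CPM in the KO_WT libraries, so the ranges do not overlap. The means were 413 ± 98.3 CPM in KO_S404A and 219.9 ± 18.1 CPM in KO_WT (SD, n = 3 each), a ratio of 1.88. For comparison the level was 113, 110.2 and 164 CPM in KO_S47A, 13.0, 11.9 and 9.11 CPM in KO and 54.3, 47.05 and 45.3 CPM in Scramble. The log2 difference of KO_S404A minus KO_WT was 0.91 (SE 0.19, 95% interval 0.49 to 1.32). Its unadjusted p of 0.000355 was the lowest of all genes tested, and after Benjamini-Hochberg adjustment p was 0.547 by edgeR's quasi-likelihood test, 0.215 with the library number as a block and 0.0753 by DESeq2. An exact two-sided permutation test over the 6 libraries gave p = 0.1, the smallest that its 20 splits allow. Against the knockout both lines had far more transcript, with a log2 difference of 5.19 in KO_S404A minus KO (adjusted p = 4.71e-08) and 4.28 in KO_WT minus KO (adjusted p = 3.49e-07). The counts do not separate transcript of the added gene from that of the endogenous locus. In bulk RNA, more cells that carry the added gene and more transcript per cell cannot be told apart. The amount of ATGL transcript and the form of the protein differ together between the lines, so for every gene described here their parts cannot be told apart.

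**Figure D1:**
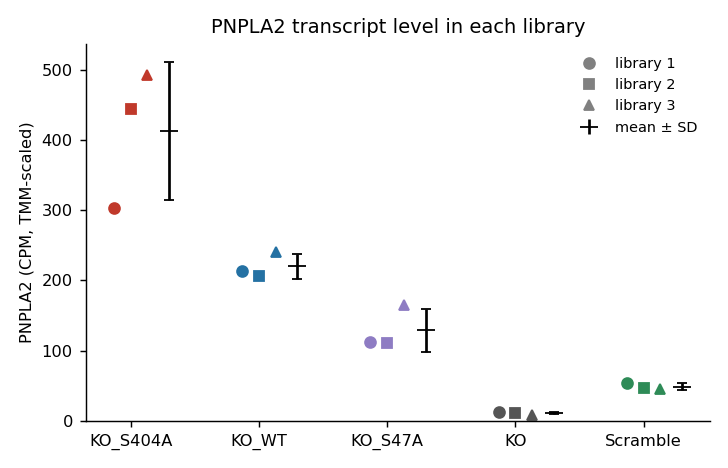
PNPLA2 transcript level in CPM (vertical axis, TMM-scaled) in each of the 15 libraries, by line, with the mean and SD of each line in black. The 3 KO_S404A libraries, between 303.2 and 492.8 CPM, lie above the 3 KO_WT libraries, between 206.6 and 240.5 CPM.

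No gene passed the test between KO_S404A and KO_WT. Of 14246 genes tested, 0 (0%) were called by edgeR at an adjusted p under 0.05, and the smallest adjusted p, 0.547, was shared by 775 genes. At an unadjusted p under 0.05 there were 1239 genes (8.7%), of which 805 (5.65% of those tested) were higher and 434 (3.05%) lower in KO_S404A. DESeq2 called 0, with 1322 genes at an unadjusted p under 0.05, and the fit with the library number as a block called 0, with 2465 such genes. The unadjusted number rested on single libraries. It was 341 without KO_S404A 2, 514 without KO_WT 1 and 643 without KO_WT 2, and 2528 without KO_S404A 1 and 1820 without KO_WT 3, with 0 called each time.

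The absence of calls does not show that the proteins act alike, and the intervals give the sizes of difference that these data leave possible. Over the tested genes the 95% interval of the log2 difference had a median halfwidth of 0.36, and the interval lay within 2-fold in both directions for 11359 genes (79.7%) and within 1.5-fold for 7656 (53.7%). Among the 9356 genes that averaged 10 CPM or more in the line with the higher level, the halfwidth was 0.29 and 9053 (96.8%) had intervals within 2-fold. The estimate itself was beyond 2-fold for 234 genes, and 0 of these reached 10 CPM. The median log2 difference over all genes was 0.0065, so the scaling left the lines centred on each other.

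**Figure D2:**
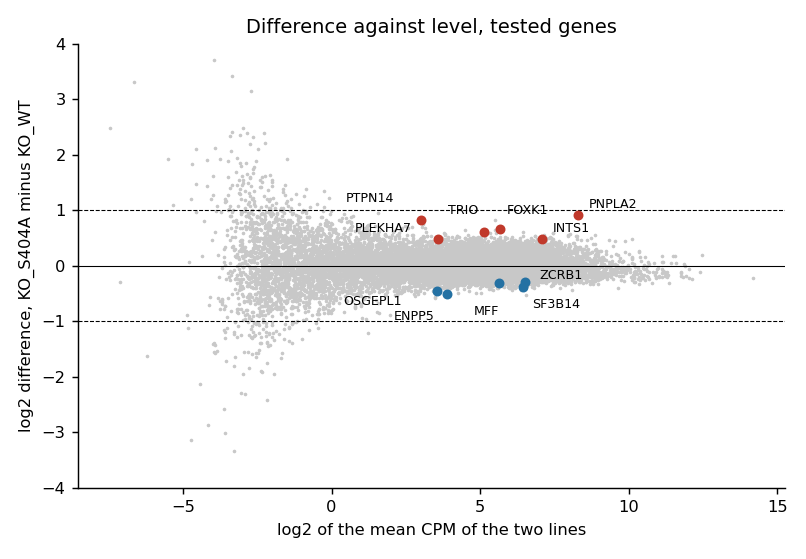
Log2 difference of KO_S404A minus KO_WT (vertical axis) against the log2 mean CPM of both lines (horizontal axis) for the tested genes, with PNPLA2 and the 5 higher and 5 lower genes of lowest unadjusted p named and dashed lines at 2-fold. The spread narrows as the level rises, 0 genes that average 10 CPM or more in the higher line lie beyond 2-fold, 2 genes lie beyond the axis limit of 4, and 1 gene at 0 in all 6 libraries is left out.

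After PNPLA2, the 5 genes of lowest unadjusted p that were higher in KO_S404A, among those with a named symbol and at least 10 CPM in the higher line, encode a junction protein, a phosphatase, a transcription factor, a GTPase activator and a transcription complex subunit. None was called. PTPN14, a tyrosine phosphatase known to restrain YAP, stood at 8.39, 11.8 and 10.9 CPM in the KO_S404A libraries, against 5.19, 5.33 and 7.00 CPM in the KO_WT libraries (log2 difference 0.83, 95% interval 0.44 to 1.21). FOXK1, a forkhead transcription factor, stood at 49.5, 72.5 and 64.1 CPM in the KO_S404A libraries, against 36.2, 33.9 and 46.97 CPM in the KO_WT libraries (0.67, 95% interval 0.35 to 0.98). TRIO, an exchange factor for small GTPases, stood at 36.8, 46.3 and 44.7 CPM in the KO_S404A libraries, against 26.3, 25.1 and 32.8 CPM in the KO_WT libraries (0.60, 95% interval 0.32 to 0.89). In all of these KO_S404A 2 was the highest library and every KO_S404A library was above every KO_WT library. PLEKHA7, a protein of adherens junctions, stood at 15.2, 13.9 and 12.5 CPM in the KO_S404A libraries, against 9.60, 9.81 and 10.3 CPM in the KO_WT libraries (0.48, 95% interval 0.26 to 0.71). INTS1, a subunit of the Integrator complex that processes nascent transcripts, stood at 137, 178 and 162 CPM in the KO_S404A libraries, against 111, 110.0 and 121 CPM in the KO_WT libraries (0.48, 95% interval 0.24 to 0.71). Their ranges did not overlap either. All 5 genes were picked for the difference between the lines, so the lack of overlap is no further support.

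The 5 genes of lowest unadjusted p that were lower in KO_S404A, taken by the same rule, include splicing and mitochondrial factors, and again none was called. SF3B14, now named SF3B6, a branch-point protein of the spliceosome, stood at 80.0, 68.9 and 77.4 CPM in the KO_S404A libraries, against 100.4, 108 and 85.6 CPM in the KO_WT libraries (log2 difference −0.38, 95% interval −0.58 to −0.17). ZCRB1, a protein of the minor spliceosome, stood at 84.7, 79.8 and 80.4 CPM in the KO_S404A libraries, against 103, 107 and 91.0 CPM in the KO_WT libraries (−0.30, 95% interval −0.47 to −0.12). MFF, which recruits the fission machinery to mitochondria, stood at 46.8, 42.2 and 43.5 CPM in the KO_S404A libraries, against 56.3, 57.6 and 50.2 CPM in the KO_WT libraries (−0.31, 95% interval −0.48 to −0.13). KO_S404A 2 was the lowest library in each of these. OSGEPL1, which modifies mitochondrial transfer RNA, stood at 9.05, 9.26 and 11.1 CPM in the KO_S404A libraries, against 13.4, 13.0 and 13.8 CPM in the KO_WT libraries (−0.45, 95% interval −0.70 to −0.20). ENPP5, of the ectonucleotide pyrophosphatase family, stood at 14.0, 10.0 and 12.8 CPM in the KO_S404A libraries, against 18.7, 17.6 and 16.4 CPM in the KO_WT libraries (−0.52, 95% interval −0.80 to −0.23). All 3 KO_S404A libraries were below the 3 KO_WT libraries in each of the 5 genes, which were picked for that difference.

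Both lines share the knockout as background, and the level in KO shows which of them lay nearer to it. PTPN14 stood at 11.6, 9.91 and 8.17 CPM in KO, a log2 difference of 0.067 for KO_S404A minus KO and −0.76 for KO_WT minus KO. FOXK1 had 0.14 and −0.53, TRIO 0.21 and −0.39, INTS1 0.18 and −0.30, and PLEKHA7 0.27 and −0.21, in the same order. For the genes on the lower side the differences were −0.29 and 0.082 for SF3B14, −0.37 and 0.081 for OSGEPL1, −0.22 and 0.09 for MFF, −0.18 and 0.12 for ZCRB1, and −0.0072 and 0.51 for ENPP5. None of these passed the test in either comparison with KO, and since both comparisons use the KO libraries the values are descriptions only.

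**Figure D3:**
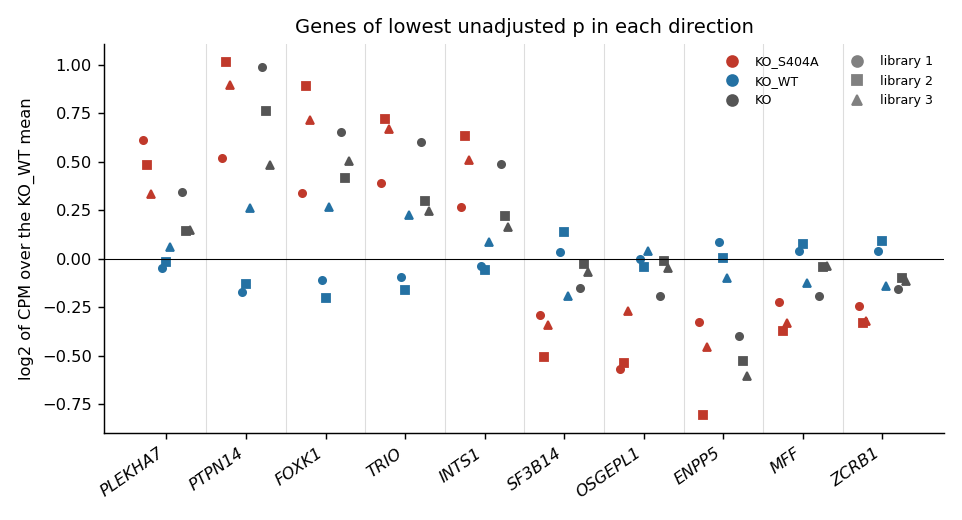
Level of the 5 higher and 5 lower genes of lowest unadjusted p in each library of KO_S404A, KO_WT and KO, as log2 of CPM over the KO_WT mean (vertical axis). The KO_S404A libraries lie above every KO_WT library in the 5 genes on the left and below every KO_WT library in the 5 on the right, and these genes were picked for that difference.

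The direction of the small differences moved with gene length and base composition. From the shortest to the longest quintile of genes the median log2 difference was −0.11, −0.03, 0.0014, 0.05 and 0.14, and the share of genes higher in KO_S404A at an unadjusted p under 0.05 was 0.807% in the shortest and 15.5% in the longest quintile. The share that was lower was 6.07% in the shortest and 0.772% in the longest quintile. Between the libraries numbered 2 the medians ran from −0.22 in the shortest to 0.24 in the longest quintile, and between those numbered 3 from −0.03 to 0.05. By GC content of the transcript the medians ran from −0.09 in the lowest to 0.10 in the highest quintile. With each library corrected for a smooth curve on length and GC, 643 genes were left at an unadjusted p under 0.05, of which 378 (2.65%) were higher and 265 (1.86%) lower, and 0 were called. In that fit PTPN14 had a log2 difference of 0.66, FOXK1 0.34, TRIO 0.31, PLEKHA7 0.33 and INTS1 0.16. The genes on the lower side had −0.35 (OSGEPL1), −0.37 (ENPP5), −0.21 (MFF), −0.10 (SF3B14) and −0.018 (ZCRB1). FOXK1 and TRIO have models of 12287 and 12986 bases in the deposited tables, against 770 for SF3B14, and PNPLA2, with 2213 bases, kept a difference of 0.84. The part of library composition in these differences was not tested beyond this correction.

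**Figure D4:**
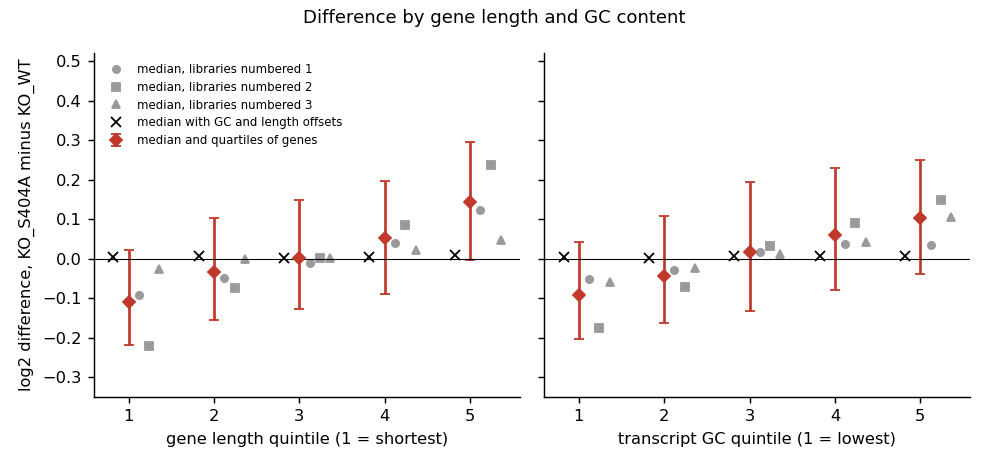
Log2 difference of KO_S404A minus KO_WT (vertical axis) in quintiles of genes by length (left) and by transcript GC content (right), as the median with quartiles over genes, the median between libraries of the same number, and the median after the length and GC correction. The medians are −0.11 in the shortest and 0.14 in the longest quintile, with the widest span between the libraries numbered 2, and lie at 0.0026 to 0.0084 for length after the correction.

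Of the genes called after ATGL was put back, WLS and CCDC85A were called with both proteins. Against KO, 3 genes were called for KO_S404A (0.0211% of those tested) and 4 for KO_WT (0.0281%), and both counts include PNPLA2 and share the KO libraries. With the library number as a block 15 genes were called in KO_WT minus KO. WLS, an escort of Wnt proteins on their way out of the cell, stood at 11.8, 12.3 and 10.7 CPM in the KO_S404A libraries, against 14.7, 12.5 and 10.9 CPM in the KO_WT libraries and 6.12, 5.26 and 5.55 CPM in KO. It rose over KO in both, with a log2 difference of 1.04 in KO_S404A minus KO (adjusted p = 0.00365) and 1.17 in KO_WT minus KO (adjusted p = 0.000964), and KO_S404A minus KO_WT was −0.13 (95% interval −0.38 to 0.12). CCDC85A, a coiled-coil protein, stood at 2.17, 2.61 and 2.44 CPM in the KO_S404A libraries, against 2.55, 3.25 and 2.40 CPM in the KO_WT libraries and 0.863, 0.612 and 0.729 CPM in KO, and likewise rose over KO in both (adjusted p = 0.00735 and 0.00247). Its difference between the proteins was −0.18, 95% interval −0.60 to 0.24. Without KO 2 neither WLS (adjusted p = 0.0559) nor CCDC85A (0.0995) was called in KO_S404A minus KO, and CCDC85A was also lost without KO_S404A 2 (0.0577) or KO 3 (0.0809). WLS, CCDC85A and the genes of the next paragraph were chosen after their values were seen.

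PCDH7, a protocadherin, was called by edgeR in KO_WT minus KO and not in KO_S404A minus KO, and that contrast depended on the fit. It stood at 27.0, 31.8 and 32.1 CPM in the KO_S404A libraries, against 21.9, 19.9 and 23.7 CPM in the KO_WT libraries, and at 58.6, 60.0 and 58.7 CPM in KO. It fell in KO_WT minus KO (log2 −1.44, adjusted p = 0.00763), a call lost without KO_WT 1 (0.0768), KO_WT 2 (0.102) or KO 2 (0.051), while KO_S404A minus KO was −0.96 (adjusted p = 0.344). In KO_S404A minus KO it was called by DESeq2 (adjusted p = 0.00150), with the library number as a block (0.00490), with the libraries numbered 1 and 2 only (0.00396) and with the length and GC offsets and the block together (0.00303). The difference between the lines, tested directly, was 0.47 (95% interval 0.083 to 0.86, unadjusted p = 0.0209, adjusted p = 0.547), so a weaker effect of S404A is not shown. The potassium channel gene KCNH8 had 1.37 in KO_S404A minus KO (adjusted p = 0.0650) and 1.12 in KO_WT minus KO (0.302). The collagen gene COL12A1 had 1.31 (0.383) and 1.64 (0.0623) in the same order. Neither gene was called by edgeR in either comparison with KO. They differed by 0.25 (95% interval −0.20 to 0.70) and −0.33 (−0.86 to 0.20) between the lines.

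The list of lipolysis genes, which includes PNPLA2, had 0 called members. Of 18 entries in the list 15 could be tested, with G0S2, PNPLA1 and FABP4 below the count filter. The median log2 difference was −0.12 over all libraries, against 0.0065 over all tested genes, and it was −0.076, −0.30 and 0.0058 between the libraries numbered 1, 2 and 3. It was −0.03 without KO_S404A 2 and −0.07 without KO_WT 1. ABHD5, the activator of ATGL, stood at 27.9, 26.9 and 30.8 CPM in the KO_S404A libraries, against 32.2, 32.0 and 30.7 CPM in the KO_WT libraries (−0.15, 95% interval −0.34 to 0.042). The inhibitor HILPDA, listed as C7orf68, stood at 33.9, 30.1 and 61.3 CPM in the KO_S404A libraries, against 33.8, 38.3 and 59.2 CPM in the KO_WT libraries (−0.068, 95% interval −0.72 to 0.59), with its highest library numbered 3 in each line. LIPE, which acts after ATGL, was low at 2.05, 1.28 and 1.87 CPM in the KO_S404A libraries, against 1.90, 2.87 and 2.38 CPM in the KO_WT libraries (−0.46, 95% interval −0.98 to 0.053), and MGLL, the last step, stood at 27.4, 35.9 and 36.3 CPM in the KO_S404A libraries, against 28.1, 27.7 and 31.1 CPM in the KO_WT libraries (0.20, 95% interval −0.074 to 0.47, and 0.002 after the length and GC correction). The ranges of these 4 genes overlapped between the lines.

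ABHD6, another monoacylglycerol hydrolase, was the lipolysis gene with the lowest unadjusted p after PNPLA2. It stood at 18.6, 18.8 and 19.1 CPM in the KO_S404A libraries, against 24.3, 24.1 and 21.0 CPM in the KO_WT libraries, with no overlap (−0.30, 95% interval −0.49 to −0.10, unadjusted p = 0.00611). Among the ATGL relatives, PNPLA3, known for a variant linked to fatty liver, stood at 0.773, 0.825 and 1.11 CPM in the KO_S404A libraries, against 1.13, 1.03 and 1.53 CPM in the KO_WT libraries (−0.45, 95% interval −0.98 to 0.086), and PNPLA4 differed by −0.21, 95% interval −0.81 to 0.39. The triglyceride hydrolase DDHD2 stood at 29.1, 31.6 and 31.0 CPM in the KO_S404A libraries, against 30.9, 30.9 and 30.4 CPM in the KO_WT libraries (−0.0083, 95% interval −0.19 to 0.18), the difference nearest 0 in the list. LIPA, the lysosomal acid lipase, differed by −0.16, 95% interval −0.46 to 0.14. Of the proteins described as controlling ATGL turnover or activity, COP1, a ubiquitin ligase listed as RFWD2, differed by −0.049, 95% interval −0.24 to 0.14, FAF2 by 0.11, 95% interval −0.061 to 0.28 and UBXN4 by −0.12, 95% interval −0.51 to 0.28. SERPINF1, a secreted ligand of ATGL, differed by −0.20, 95% interval −1.16 to 0.77, and FABP5, at 0.216 and 0.148 CPM on average in KO_S404A and KO_WT, was too low to compare and has near-identical pseudogene copies that could draw its reads.

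Lipid droplet genes likewise had 0 called members of 14 tested, with PLIN1, PLIN5, CIDEA, CIDEC and HSD17B13 below the filter. The list median was 0.068 (0.063, −0.049 and 0.063 between the libraries numbered 1, 2 and 3). PLIN3, the main perilipin measured here, stood at 90.1, 123 and 119 CPM in the KO_S404A libraries, against 93.2, 97.7 and 108 CPM in the KO_WT libraries (0.15, 95% interval −0.13 to 0.43). PLIN2, the perilipin usually found on droplets of non-adipose cells, was at 0.145, 0.270 and 0.215 CPM in KO_S404A and 0.0209, 0.239 and 0.149 CPM in KO_WT, too low for a comparison (0.64, 95% interval −1.27 to 2.54), as was PLIN4 (0.042, 95% interval −1.84 to 1.93). Whether reads of PLIN2 were lost to similar copies or to the gene model could not be checked, so its counts may understate its level. BSCL2, which encodes seipin and shapes nascent droplets, stood at 5.14, 4.76 and 4.57 CPM in the KO_S404A libraries, against 3.599, 4.26 and 3.09 CPM in the KO_WT libraries, without overlap (0.40, 95% interval 0.046 to 0.76, unadjusted p = 0.0297). RAB18, a droplet GTPase, stood at 110.3, 93.8 and 103 CPM in the KO_S404A libraries, against 121, 120.2 and 109.8 CPM in the KO_WT libraries (−0.19, 95% interval −0.37 to −0.011, unadjusted p = 0.0393, and −0.029 after the length and GC correction). CIDEB, which promotes droplet fusion, differed by 0.24, 95% interval −0.058 to 0.54, FITM2, needed for droplet budding, by 0.094, 95% interval −0.19 to 0.38, and HSD17B11, a droplet dehydrogenase, by −0.27, 95% interval −0.54 to 0.0025 (−0.067 after the correction).

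The remaining coat genes differed by −0.05 (METTL7A, −0.45 to 0.35), −0.20 (AUP1, −0.53 to 0.13), −0.19 (LDAH, listed as C2orf43, −0.47 to 0.085), 0.16 (VPS13C, −0.16 to 0.48, with 0.033 after the correction), 0.43 (FITM1, −0.61 to 1.46) and −1.07 (METTL7B, −2.54 to 0.41), where brackets give the 95% interval. METTL7B and FITM1 were under 1 CPM in every library of KO_S404A and KO_WT, and their intervals were wide.

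Pathways that use or supply fatty acids had 0 called members as well. For fatty acid oxidation the median of 33 genes was −0.041, with single genes from −0.29 to 0.26 and 0 higher and 3 lower in KO_S404A at an unadjusted p under 0.05, where 5.65% of all tested genes were higher and 3.05% lower. All 33 had 95% intervals within 2-fold. SCP2, a sterol carrier and peroxisomal thiolase, had the lowest p there, at 125, 110.3 and 107 CPM in the KO_S404A libraries, against 146, 136 and 119.7 CPM in the KO_WT libraries (−0.23, 95% interval −0.43 to −0.032). After the length and GC correction the oxidation genes had a median of −0.045. Of them 0 were higher and 1 lower, against 2.65% and 1.86% of all tested genes. Among 20 PPAR targets and coactivators the median was 0.054, with 3 higher and 0 lower against the same 5.65% and 3.05%. After the length and GC correction it was −0.03, with 1 higher and 0 lower, where 2.65% of all tested genes were higher and 1.86% lower. PPARGC1B, a coactivator of mitochondrial genes, stood at 4.59, 7.37 and 8.67 CPM in the KO_S404A libraries, against 3.31, 3.68 and 5.53 CPM in the KO_WT libraries (0.72, 95% interval 0.21 to 1.22, unadjusted p = 0.00884), and the ranges overlapped.

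Lipid synthesis was centred near 0. Fatty acid synthesis had a median of 0.016 over 20 genes. In it 0 were higher and 0 lower at an unadjusted p under 0.05, against 5.65% and 3.05% of all tested genes. ACACA, which makes malonyl-CoA, stood at 303, 402 and 387 CPM in the KO_S404A libraries, against 255, 270.5 and 363 CPM in the KO_WT libraries (0.30, 95% interval −0.0035 to 0.60, and 0.059 after the length and GC correction). Cholesterol synthesis had a median of −0.081 over 25 genes, and INSIG1, which holds back the sterol-sensing factor SREBP, stood at 133, 159.8 and 151 CPM in the KO_S404A libraries, against 187, 187 and 195 CPM in the KO_WT libraries, without overlap (−0.36, 95% interval −0.67 to −0.054, unadjusted p = 0.0246). Triglyceride and phospholipid synthesis had a median of −0.0032 over 28 genes, and the member of lowest p was the acyltransferase AGPAT3 (0.28, 95% interval 0.029 to 0.53, and 0.039 after the length and GC correction). Uptake and activation of fatty acids had a median of −0.0082 over 21 genes, with 0 higher and 0 lower against the same 5.65% and 3.05%. LPL, which frees fatty acids from circulating triglyceride and was picked after seeing its values, stood at 0.193, 0.255 and 0.488 CPM in the KO_S404A libraries, against 0.335, 0.335 and 0.468 CPM in the KO_WT libraries (−0.31, 95% interval −1.58 to 0.97).

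In mouse, AMPK and protein kinase A have been described as acting on the serine that corresponds to the one replaced in S404A. Genes of both and of their upstream kinases spanned log2 differences of −0.37 to 0.29. Of 22 such genes 0 were called, with a median of −0.019. At an unadjusted p under 0.05, 2 were higher and 2 lower, where 5.65% of all tested genes were higher and 3.05% lower. After the length and GC correction 0 were higher and 2 lower, against 2.65% and 1.86% of all tested genes. PRKACB, a catalytic subunit of protein kinase A, stood at 1083, 949 and 1175 CPM in the KO_S404A libraries, against 1326, 1278 and 1298 CPM in the KO_WT libraries (−0.28, 95% interval −0.51 to −0.058). The ranges did not overlap, but PRKACB was picked as the gene of lowest p in its list. The cAMP and CREB targets had a median of 0.17 over 16 genes, 0.018 after the length and GC correction. CREM, a cAMP-responsive transcription factor, stood at 13.1, 11.8 and 13.0 CPM in the KO_S404A libraries, against 17.1, 17.0 and 15.2 CPM in the KO_WT libraries, without overlap (−0.38, 95% interval −0.61 to −0.15, unadjusted p = 0.00360). NR4A2, an orphan nuclear receptor on this list and on that of immediate early genes, had the largest estimate of the genes named, 3.16 (95% interval 1.00 to 5.32), from 0.515, 0.240 and 0.0781 CPM in the KO_S404A libraries, against 0.0418, 0.0239 and 0.0213 CPM in the KO_WT libraries. It stood at 0.349, 0.0540 and 0.0374 CPM in KO, and a level this low rests on few reads.

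Among the energy pathways the respiratory chain had the lowest list median of all. Its 55 nuclear-encoded subunits had a median of −0.19, with 50 of 55 below 0 where 48.8% of all tested genes were, and 15 of 55 lower at an unadjusted p under 0.05 against 3.05% of all genes. None was called. COX7B, a subunit of cytochrome oxidase, stood at 112, 84.5 and 98.6 CPM in the KO_S404A libraries, against 130.4, 129 and 116.5 CPM in the KO_WT libraries (−0.35, 95% interval −0.60 to −0.10, and −0.036 after the length and GC correction). The list median moved with the libraries. Between the libraries numbered 1, 2 and 3 its median was −0.12, −0.41 and −0.069, it was −0.09 without KO_S404A 2, and it was −0.036 with 1 higher and 2 lower after the length and GC correction, where 1.86% of all genes were lower. Its members have a median model length of 995 bases. The tricarboxylic acid cycle had a median of 0.0069 over 22 genes with 1 higher and 3 lower, where 5.65% of all tested genes were higher and 3.05% lower. After the correction the median of the cycle was 0.044 with 1 higher and 0 lower, against 2.65% and 1.86% of all tested genes. Its member of lowest p was SDHB, a succinate dehydrogenase subunit, with 115.6, 98.5 and 117 CPM in the KO_S404A libraries, against 131, 129 and 129.8 CPM in the KO_WT libraries (−0.24, 95% interval −0.44 to −0.038, and −0.08 after the correction). Glycolysis had a median of 0.086 over 26 genes. HK2, the hexokinase that starts the pathway, stood at 61.9, 78.0 and 67.1 CPM in the KO_S404A libraries, against 48.7, 51.5 and 56.99 CPM in the KO_WT libraries, without overlap (0.40, 95% interval 0.17 to 0.62, unadjusted p = 0.00188, and 0.22 after the correction), and at 70.1, 62.8 and 68.1 CPM in KO.

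Proliferation and stress lists varied more between the libraries of a line than between the lines. Genes of DNA replication and G1/S had a median of 0.13 over 37, and those of mitosis 0.081 over 35, with 0 called in each. Between the libraries numbered 1, 2 and 3 the medians were −0.14, 0.30 and 0.09 for replication and −0.18, 0.31 and 0.071 for mitosis. FOXM1, a transcription factor of mitotic genes, stood at 129.5, 239.8 and 273 CPM in the KO_S404A libraries, against 128, 154 and 235 CPM in the KO_WT libraries (0.31, 95% interval −0.32 to 0.95), and the library numbered 1 was the lowest in both lines. The ATF4 response to amino acid shortage had a median of 0.11 over 45 genes (0.21, −0.018 and −0.11 by library number), and the SD between replicates was 1.18 for its level, against 0.544 for replication, 0.712 for mitosis and 0.617 for the chaperones named next. Chaperones of the endoplasmic reticulum had a median of −0.031 over 26 (0.24, −0.28 and −0.10 by library number). In these 4 lists the sign differed between library numbers.

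The immune and signalling lists also held no called gene. Interferon response genes had a median of −0.044 over 42, and MX1, an antiviral GTPase, stood at 2.63, 3.42 and 2.91 CPM in the KO_S404A libraries, against 2.07, 2.01 and 2.32 CPM in the KO_WT libraries (0.48, 95% interval 0.11 to 0.86). Antigen presentation had a median of −0.0077 over 12, with B2M, the light chain of class I molecules, at −0.28 (−0.56 to −0.012, and −0.06 after the length and GC correction). Sensors of foreign nucleic acid had 0.10 over 8, led in p by the adaptor MAVS (0.37, 0.12 to 0.63, and 0.085 after the correction). NF-kB and cytokine genes had 0.12 over 12, led in p by RELA (0.30, 0.07 to 0.53), and immediate early genes 0.13 over 27 with 4 higher and 0 lower at an unadjusted p under 0.05, where 5.65% of all tested genes were higher and 3.05% lower. After the correction the immediate early genes had a median of 0.11. Of them 4 were higher and 0 lower, against 2.65% and 1.86% of all tested genes. Brackets again hold the 95% interval of the log2 difference.

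Luminal genes had a median of −0.0006 over 21, and the member of lowest p was the transcription factor GATA2 (0.38, 95% interval −0.055 to 0.82). In the lists of adhesion and cell identity, Wnt pathway genes had a median of 0.14 over 34 (0.026 after the length and GC correction), led in p by the receptor FZD6 at −0.33 (−0.59 to −0.065). Adhesion genes had 0.12 over 23 (0.034 after the correction). Mesenchymal genes had −0.034 over 18, and fibronectin FN1 stood at 32.1, 41.9 and 37.1 CPM in the KO_S404A libraries, against 24.5, 27.6 and 30.1 CPM in the KO_WT libraries, without overlap (0.43, 95% interval 0.12 to 0.74, and 0.16 after the correction). Of the basal genes 3 could be tested, and KRT14, a basal keratin, stood at 1.67, 1.38 and 1.78 CPM in the KO_S404A libraries, against 2.24, 1.87 and 2.45 CPM in the KO_WT libraries (−0.44, 95% interval −0.80 to −0.08). Neuroendocrine genes had −0.045 over 8, led in p by the repressor REST (0.25, −0.038 to 0.54). The highest median of all lists before the correction, 0.28 (0.12 after it), was that of 5 markers of stroma, endothelium and blood, whose summed level over 14 genes ran from 34.0 to 45.5 CPM in KO_S404A and from 33.6 to 35.8 CPM in KO_WT, with CD3E, DES, HBB and PECAM1 at 0 in all 6 libraries. COL1A1 had the lowest p in it, at 0.32 (−0.076 to 0.72, and 0.12 after the correction).

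The other lists had medians of −0.054 (hypoxia, 25 genes, lowest p EPAS1 at 0.54), 0.013 (NRF2 and NADPH, 30), 0.049 (p53 targets, 25, RRM2B at −0.24, or −0.16 after the correction) and 0.0085 (lysosome and autophagy, 36, LAMP1 at 0.16). Histones had −0.092 over 17 and, being near-identical copies, may have lost or shared reads, and markers of non-prostate epithelial lines had 0.19 over 9, with a summed level of 42.6 to 45.4 CPM in KO_S404A and 41.7 to 46.8 CPM in KO_WT. Over all 36 lists, which hold 819 tested entries, 0 had a called member, and 35 medians lay within 0.2 of 0 on the log2 scale.

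**Figure D5:**
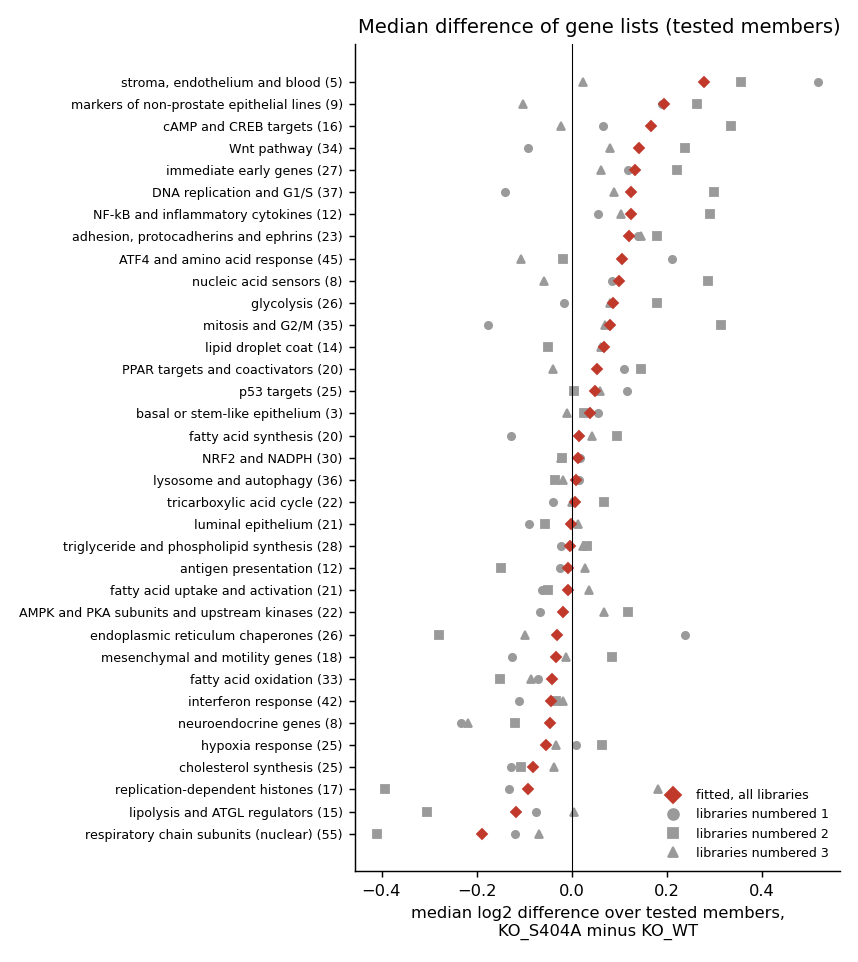
Median log2 difference of KO_S404A minus KO_WT over the tested members of 35 gene lists (number of members in brackets), fitted over all libraries (red) and between the libraries of the same number (grey). The medians run from −0.19 for the respiratory chain to 0.28 for stroma, endothelium and blood, and 10 lists have the same sign in all 3 numbered pairs.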

How the data were processed

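Per the labels' protocols, poly(A) RNA was selected from column-purified RNA followed by a directional library kit. Per the submitters' processing notes CASAVA and STAR were used, without versions. Genome build, annotation release and strand setting of the counting were not given in the sources used here. Reads of overlapping or antisense genes therefore cannot be told apart. The authors deposited whole-number read counts per gene, not normalized, and FPKM values. The deposited FPKM values served only to derive gene lengths, which were the same in every library (relative spread at most 1.45e-13). Each table has 20806 gene entries, and 5 further entries of unassigned reads made up 13.2% to 20.6% of a library and were left out. Counts were 0 everywhere for 2512 entries, and 20623 entries matched a RefSeq symbol.

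Genes with low counts were removed with filterByExpr, library sizes were scaled by TMM, and a quasi-likelihood model with 1 mean per line was fitted to the counts of all 15 libraries in edgeR 4.0.16 (R 4.3.3, limma 3.58.1), with 10 residual degrees of freedom. Calls were made at an adjusted p under 0.05 (Benjamini-Hochberg), and adjusted p-values come from this test unless another is named. The SE is the absolute log2 difference over the square root of F, and 95% intervals were built from it. Alternatives were RLE scaling, no filter, DESeq2 1.42.0, the 2 lines alone, the library number as a block, libraries 1 and 2 only, each library of KO_S404A, KO_WT and KO left out, and per-library offsets on transcript GC (GENCODE release 29) and gene length, the last chosen after seeing the data. Within KO_S404A and within KO_WT no libraries differed by as little as counting noise (chi-square per degree of freedom 8.11 at least), so none was treated as a copy of another.

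The libraries' numbers come from the labels. Same-numbered libraries of KO_S404A and KO_WT deviated from their line means together, with correlations across genes of 0.48, 0.19 and 0.65. Libraries numbered 1 and 2 also correlated across numbers, at 0.28 for KO_S404A 1 with KO_WT 2 and 0.14 for KO_S404A 2 with KO_WT 1. KO_WT 3 had −0.55 with KO_S404A 1 and −0.23 with KO_S404A 2. KO_S404A 3 had −0.53 with KO_WT 1 and −0.38 with KO_WT 2. Deviations from a line mean sum to 0, so negative values are partly built in. With KO the same-number values were 0.16, 0.14 and 0.43 for KO_WT and 0.17, 0.02 and 0.51 for KO_S404A. The libraries numbered 3 therefore stood apart in both lines. Pairing by each number is not established, and the block on it is an alternative only. The rule for named genes takes PNPLA2, the called genes of largest change, or where fewer than 5 are called in a direction the 5 of lowest unadjusted p with at least 10 CPM in the higher line and a named symbol on 1 entry, every member of the lipolysis and lipid droplet lists, and the gene of lowest p in each other list. The results of 1 list and of some single genes are not reported here. The comparison, the lists and the rule were chosen with earlier results of these data known. Where ranges are said not to overlap, the share of all tested genes with that trait is not given here. Most genes so described were picked for a low p, so the lack of overlap is a description only. KO_S404A and KO_WT were each compared with KO to give side values, and these comparisons share libraries with the direct one.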

Additional observations from a re-analysis of the deposited data

How the results depend on the processing

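For KO_S404A minus KO_WT the count of called genes was 0 in the main fit and in every alternative, those without a KO library included. The log2 difference of PNPLA2 ran from 0.76 (without KO_S404A 3) to 1.09 (without KO_S404A 1). With the replicate block the smallest adjusted p was 0.215, with the libraries numbered 1 and 2 only 0.206, in the fit of the 2 lines alone 0.953 (438 genes at an unadjusted p under 0.05), and with the length and GC offsets and the replicate block together 0.0929. Of 79 named genes 69 kept their direction in each of 14 settings and 10 did not, with 0 called in any. Of 504 list medians under alternatives 27, in 9 lists, moved by more than the SD between replicates. In KO_S404A minus KO the count of called genes was 3, against 8 by DESeq2, 14 with the replicate block, 403 with the libraries numbered 1 and 2 only, 15 with offsets and block, and 1 to 4 when leaving out 1 library. In KO_WT minus KO it was 4, against 8 by DESeq2, 15 with the replicate block, 43 with the libraries numbered 1 and 2 only, 26 with offsets and block, and 3 to 5 when leaving out 1 library. The cause was not tested. Against KO the same-number correlations of KO_S404A (0.17, 0.02 and 0.51) were similar to those of KO_WT (0.16, 0.14 and 0.43). The block behind the 14 and 15 calls rests on a shared number only. Not all of these calls depended on it, since WLS and CCDC85A were called in both comparisons with and without the block. All 234 estimates beyond 2-fold were of genes under 10 CPM in both lines.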
